A study of Rattus norvegicus with 12 samples.

Results

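The genes described here carry glucose across the cells of the renal tubule or make new glucose inside them. They were chosen by name, as every probe set whose platform symbol was 1 of 10 genes alone. Of the 10 genes, 9 had such a probe set, and the 10 probe sets found stand among 20832 probe sets with 1 gene symbol on the array. G6pc1, the catalytic subunit of glucose-6-phosphatase, was listed in 4 probe sets with other genes each time and was not analysed here. The gene for pyruvate carboxylase, Pcx, has the current symbol Pc.

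Total RNA of renal cortex from male rats was measured on 12 Affymetrix arrays, 1 for each kidney graft. The 6 ABCC2-/- grafts came from donors without the export pump MRP2, which moves organic anions out of proximal tubule cells, and the 6 wild-type grafts carried the pump. All grafts were placed in wild-type recipients, so the pump was lacking in the grafted kidney and not in the host. The labels used here give no strain, age or time after transplantation, and leave unsaid how many donors gave the grafts, so p-values cover the variation among these grafts alone. Whole cortex was used, in which fewer cells of a type and less RNA per cell cannot be told apart.

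The proximal tubule takes nearly all filtered glucose back. Sodium-coupled transporters of the apical membrane (SGLT2 in the early tubule, SGLT1 in the late tubule) carry it into the cell, and facilitated transporters of the basolateral membrane (GLUT2 and GLUT1) let it out to the blood. The same cells make glucose from lactate and other precursors, and kidney is, beside liver, the main organ that releases new glucose.

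Of the 9 tested probe sets 3 had a signal between 1.25-fold and 1.30-fold lower in ABCC2-/- grafts at an unadjusted p under 0.05. These were the probe sets of the early apical transporter Slc5a2, the basolateral transporter Slc2a2 and the gluconeogenic enzyme gene Pcx. None of the 9 passed an adjusted p of 0.05. Pck1, Fbp1 and Slc37a4, which encode later steps of gluconeogenesis, had small positive differences within the spread between grafts. The tenth probe set, of Slc5a1, was too dim for the test. Differences are log2 signal in ABCC2-/- grafts minus log2 signal in wild-type grafts, with the standard error (SE) of limma, fitted over all 18625 probe sets above a filter on low signal and adjusted by Benjamini-Hochberg over all of them. Of these probe sets 0.0215% passed, all of them lower in ABCC2-/- grafts, and without adjustment 4.63% were lower and 3.35% higher.

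The label of the grafts was checked on Abcc2, the gene of MRP2, which had a signal of 0.141 ± 0.0594 in ABCC2-/- grafts and 0.899 ± 0.0746 in wild-type grafts (SD, n = 6 each; adjusted p = 8.35e-06 in limma). The arrays formed 2 sets with 3 grafts of each genotype in each. Array set 2 held ABCC2-/- replicates 3, 10 and 14 and wild-type replicates 4, 7 and 8, and array set 1 the others. In array set 2 the signal of the middle Gapdh control probe set was between 50.3 and 54.8 in ABCC2-/- grafts and between 41.4 and 45.8 in wild-type grafts. In array set 1 it was between 34.9 and 36.1 in ABCC2-/- grafts and between 32.9 and 34.2 in wild-type grafts. The genotypes thus did not overlap in this control within either array set. The ratio of the Gapdh 3′ to 5′ control probe sets, a measure of RNA integrity, was between 1.28 and 1.36 in ABCC2-/- grafts of array set 2 and between 1.64 and 1.93 on the other 9 arrays. Bacterial poly-A transcripts, which are added to RNA as labelling controls, were 3.98-fold to 8.72-fold brighter in ABCC2-/- grafts, without overlap in 24 of 24 probe sets. What set this difference cannot be told apart from genotype.

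**Figure D1:**
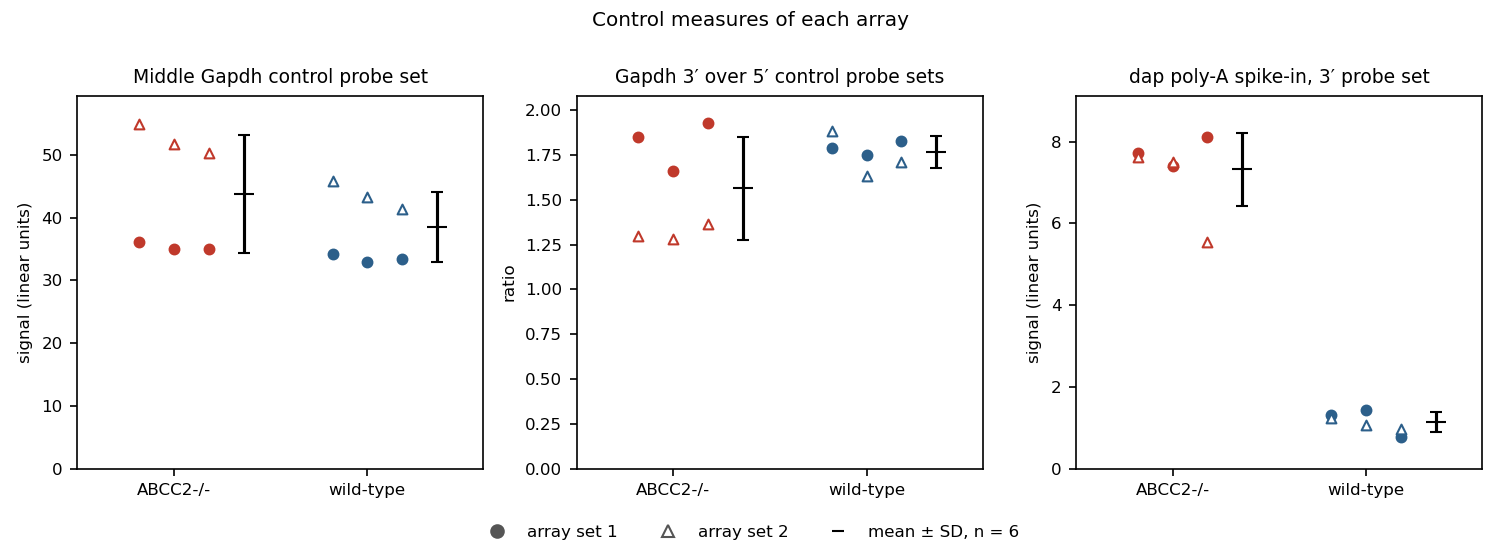
Control measures of the 12 arrays by graft genotype, as signal in linear units or as a ratio, with array set 1 as filled circles, array set 2 as open triangles and the mean ± SD of 6 arrays as a bar. Array set 2 lies above array set 1 in the middle Gapdh control, ABCC2-/- grafts of array set 2 have Gapdh 3′ to 5′ ratios between 1.28 and 1.36, and the dap spike-in lies between 5.55 and 8.11 in ABCC2-/- grafts and between 0.765 and 1.44 in wild-type grafts.

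The promoters of 3 of the genes are shown, those of the transporters Slc5a2 and Slc2a2, which had negative differences, and that of Pck1, a gene known for its control by cAMP, which had a positive one. None of these differences passed the threshold. Each window runs from 250 bases before the gene's start to 50 after it (RefSeq, GRCr8, 5′ to 3′, all on the plus strand). Capitals mark motifs found on either strand.
Slc5a2 (chr1:192277371-192277670): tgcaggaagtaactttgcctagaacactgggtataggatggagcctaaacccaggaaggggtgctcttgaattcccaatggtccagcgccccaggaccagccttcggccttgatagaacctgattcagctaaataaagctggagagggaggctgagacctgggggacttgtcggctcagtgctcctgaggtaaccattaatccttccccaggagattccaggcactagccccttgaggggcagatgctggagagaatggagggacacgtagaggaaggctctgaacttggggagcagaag
Slc2a2 (chr2:113540120-113540419): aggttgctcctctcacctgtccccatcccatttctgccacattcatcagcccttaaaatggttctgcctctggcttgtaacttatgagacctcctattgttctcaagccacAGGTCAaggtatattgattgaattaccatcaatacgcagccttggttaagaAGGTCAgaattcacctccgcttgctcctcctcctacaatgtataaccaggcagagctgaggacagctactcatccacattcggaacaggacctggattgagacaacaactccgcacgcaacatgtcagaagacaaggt
Pck1 (chr3:182348322-182348621): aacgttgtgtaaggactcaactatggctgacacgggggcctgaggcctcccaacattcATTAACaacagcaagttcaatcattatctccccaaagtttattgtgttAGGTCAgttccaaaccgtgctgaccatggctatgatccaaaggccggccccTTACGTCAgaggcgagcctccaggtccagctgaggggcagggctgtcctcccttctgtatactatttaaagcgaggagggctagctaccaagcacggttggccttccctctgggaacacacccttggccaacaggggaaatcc

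Of the motifs searched, which do not overlap in these windows, AGGTCA, the hexamer of nuclear receptor sites, was found on 2 occasions in Slc2a2 and on 1 in Pck1. It is held by 16.2% of all 33469 promoter windows. GTTAAT, a part of the HNF1 site, was found in Pck1 on the minus strand and is held by 7.45% of windows. TTACGTCA, a form of the cAMP response element, was found in Pck1, where it begins 93 bases before the start, and is held by 0.807% of windows. None of the 3 motifs was found in the Slc5a2 window. A match describes the letters of the window alone. Only these exact letters were searched, so a variant form of a site would be missed.

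Slc5a2 encodes SGLT2, the high-capacity transporter that takes up most filtered glucose in the early proximal tubule. Its signal was 9.37, 7.05, 8.06, 6.64, 7.24 and 6.15 in ABCC2-/- replicates 5, 9, 11, 3, 10 and 14, against 9.25, 11.4, 10.4, 9.75, 9.37 and 7.54 in wild-type replicates 1, 6, 9, 4, 7 and 8. The groups overlapped, with 4 of 6 ABCC2-/- arrays below the lowest wild-type array and all 6 below the wild-type mean. The mean was 7.42 ± 1.15 in ABCC2-/- grafts and 9.63 ± 1.30 in wild-type grafts (SD, n = 6 each). The log2 difference was -0.38 (SE 0.11), a signal 1.30-fold lower (95% confidence interval 1.10 to 1.53), with an unadjusted p of 0.00376 and an adjusted p of 0.606 in limma.

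Slc5a2 differed by a like amount within both array sets. It was -0.41 on the log2 scale in array set 2, where the genotypes did not overlap. In array set 1 it was -0.35, and ABCC2-/- replicate 5 lay above wild-type replicate 1. The share of all probe sets without overlap in a single array set was not worked out. With array set as a block the adjusted p was 0.0518, just above the threshold. In array set 2 alone, where 6.39% of all tested probe sets passed (504 lower and 686 higher of 18625), it was 0.0449. The Gapdh ratio did not overlap between the genotypes in that set, so genotype and ratio cannot be told apart there. Adding the Gapdh ratio as a covariate gave a difference of -0.25 (SE 0.11), and the part of RNA integrity in the result was not tested further.

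Slc5a1 encodes SGLT1, the high-affinity transporter that recovers what SGLT2 leaves in the late proximal tubule. Its signal ran from 0.0516 (ABCC2-/- replicate 14) over a median of 0.185 to 0.271 in ABCC2-/- grafts, and from 0.126 over a median of 0.171 to 0.226 in wild-type grafts. The ranges overlapped widely. Its mean log2 signal of -2.55 lay just under the filter of -2.53, so it was not tested in the main fit. Without the filter the log2 difference was -0.02 (SE 0.31), an error too wide to show a change of the size seen in Slc5a2.

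The difference between these apical transporters was therefore not resolved. Per array, log2 Slc5a2 minus log2 Slc5a1 was 5.44 ± 0.625 in ABCC2-/- grafts and 5.80 ± 0.429 in wild-type grafts (SD, n = 6 each). The genotypes differed by -0.35, with an exact two-sided permutation p of 0.262, where the smallest p possible is 0.00216. In array set 2 alone the sign was the opposite (0.15), with ABCC2-/- replicate 14 raised to the floor for Slc5a1.

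Slc2a2 encodes GLUT2, the facilitated transporter through which glucose leaves early proximal tubule cells. Its signal was 14.3, 12.6, 12.05, 9.94, 11.4 and 10.6 in ABCC2-/- replicates 5, 9, 11, 3, 10 and 14, against 18.2, 16.2, 17.2, 14.2, 11.5 and 11.96 in wild-type replicates 1, 6, 9, 4, 7 and 8. Over all arrays the groups overlapped, yet within each array set every ABCC2-/- graft lay below every wild-type graft. The mean was 11.8 ± 1.56 in ABCC2-/- grafts and 14.9 ± 2.78 in wild-type grafts (SD, n = 6 each), a log2 difference of -0.32 (SE 0.12) and an adjusted p of 0.606 in limma. The signal was 1.25-fold lower (95% confidence interval 1.04 to 1.49).

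Slc2a2 passed with array set as a block, the one transporter gene among these that did. The difference was unchanged by construction, its SE fell to 0.07 and the adjusted p was 0.0462. With this block 0.397% of all tested probe sets passed as lower and 0.204% as higher. Within array set 2 it was -0.23 and within array set 1 -0.41. With the Gapdh ratio as a covariate in place of the block it was -0.18 (SE 0.12), 1.7 times smaller than in the main fit. It passed in neither of these 2 fits, and block and ratio were not fitted together.

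Slc2a1 encodes GLUT1, the facilitated transporter of the late proximal tubule and of many other cells, among them endothelium. Its signal ran from 0.932 over a median of 1.27 to 1.48 in ABCC2-/- grafts and from 1.23 over a median of 1.34 to 1.46 in wild-type grafts. The lowest arrays were ABCC2-/- replicates 10 and 3, and the groups overlapped. Slc2a1 differed by -0.11 on the log2 scale (SE 0.11, adjusted p = 0.727 in limma), a ratio of 0.926 (95% confidence interval 0.789 to 1.09), and it was positive in array set 1 alone and with the Gapdh ratio as a covariate.

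Erythrocyte markers overlapped between the genotypes, and the 3 that were tested had negative differences (Hba-a3 -0.30, Hbb -0.30 and Alas2 -0.24), each with an adjusted p above the threshold. Their median was -0.097 in array set 1 and -0.42 in array set 2, and Slc2a1 was at 0.046 and -0.27 in the same sets. The part of erythrocytes in the Slc2a1 values was not tested. The summed signal of the 5 markers with a probe set was between 10.8 and 46.6 in ABCC2-/- grafts and between 19.9 and 53.6 in wild-type grafts, with none at the lowest value on all arrays. Per array, log2 Slc2a2 minus log2 Slc2a1 was 3.24 ± 0.236 in ABCC2-/- grafts and 3.45 ± 0.295 in wild-type grafts (SD, n = 6 each). The genotypes differed by -0.21 (exact two-sided permutation p = 0.177), so a different response of the 2 facilitated transporters was not shown.

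**Figure D2:**
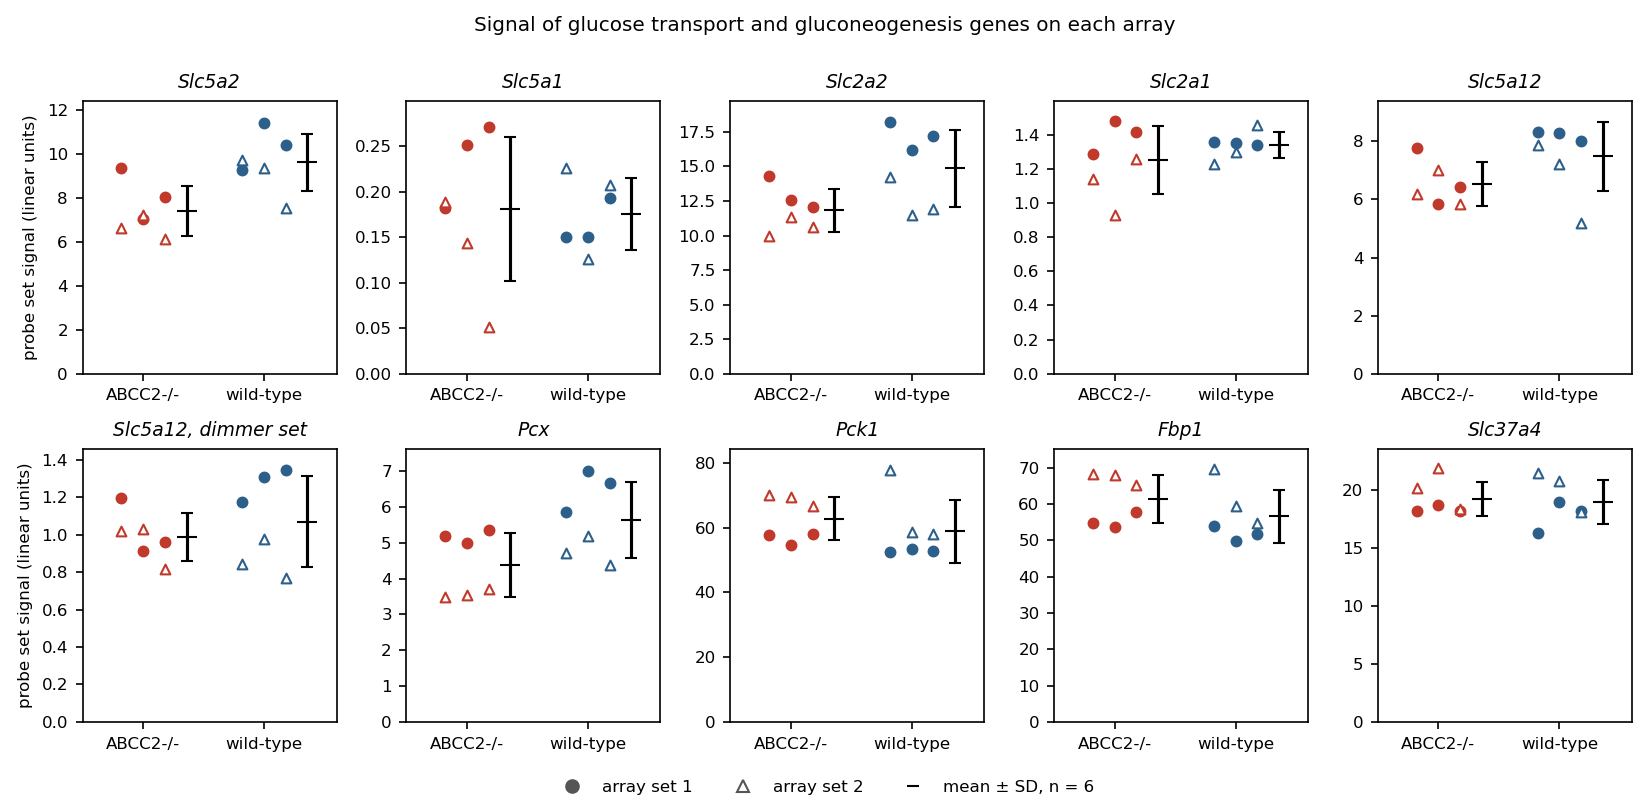
Signal of each probe set in linear units by graft genotype, 1 point per array, with array set 1 as filled circles, array set 2 as open triangles and the mean ± SD of 6 arrays as a bar. For Slc2a2 and Pcx the ABCC2-/- arrays lie below the wild-type arrays within each array set, while Pck1 and Fbp1 are bright in array set 2 of ABCC2-/- grafts and in wild-type replicate 4.

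Slc5a12 encodes a low-affinity sodium-coupled transporter of lactate in the proximal tubule, and lactate is a main precursor of renal glucose. It had a pair of probe sets. The brighter one ran from 5.85 over a median of 6.30 to 7.78 in ABCC2-/- grafts and from 5.19 over a median of 7.94 to 8.33 in wild-type grafts. In wild-type grafts 5 arrays lay at or above 7.21 and replicate 8 alone was low. This probe set differed by -0.19 on the log2 scale (SE 0.12, adjusted p = 0.638 in limma).

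The genotypes did not overlap for the brighter Slc5a12 probe set in array set 1 (log2 difference -0.31) and overlapped in array set 2 (-0.071). Here too the share of all probe sets without overlap in a single array set was not worked out. The dimmer probe set ran from 0.819 over a median of 0.988 to 1.20 in ABCC2-/- grafts and from 0.769 over a median of 1.08 to 1.34 in wild-type grafts. Its log2 difference was -0.09 (SE 0.15, adjusted p = 0.827), being -0.33 in array set 1 and 0.15 in array set 2. This contrast between the array sets had an unadjusted p of 0.0302 and an adjusted p of 0.218 as an interaction term in limma. An interaction at an adjusted p under 0.05 was found in 2.54% of all tested probe sets and in none of these 9, of which the dimmer Slc5a12 set was the 1 at an unadjusted p under 0.05.

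Pcx encodes pyruvate carboxylase, the mitochondrial enzyme that turns pyruvate into oxaloacetate and opens gluconeogenesis from lactate. Its signal was 5.20, 4.98, 5.36, 3.47, 3.54 and 3.71 in ABCC2-/- replicates 5, 9, 11, 3, 10 and 14, against 5.85, 6.99, 6.66, 4.70, 5.18 and 4.39 in wild-type replicates 1, 6, 9, 4, 7 and 8. In each array set the ABCC2-/- grafts lay below the wild-type grafts without overlap, and array set 2 lay below array set 1 in both genotypes. The mean was 4.38 ± 0.892 in ABCC2-/- grafts and 5.63 ± 1.06 in wild-type grafts (SD, n = 6 each). The log2 difference was -0.37 (SE 0.14, adjusted p = 0.606 in limma), a signal 1.29-fold lower (95% confidence interval 1.045 to 1.591).

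Pcx had the lowest p of these genes with array set as a block (SE 0.06, adjusted p = 0.0280 in limma). It also passed in array set 2 alone (adjusted p = 0.0248 in limma), as did 6.39% of all tested probe sets. In that set the Gapdh ratio was between 1.28 and 1.36 in ABCC2-/- grafts and between 1.64 and 1.88 in wild-type grafts. Genotype and ratio cannot be told apart there. Within the array sets the log2 difference of Pcx was -0.41 in set 2 and -0.32 in set 1. With the Gapdh ratio as a covariate in place of the block it was -0.16 (SE 0.12), 2.3 times smaller than in the main fit, and did not pass. Pcx and Slc2a2 were the 2 of these 9 that were lower without overlap within both array sets, against 2.57% of all tested probe sets.

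Pck1 encodes cytosolic phosphoenolpyruvate carboxykinase, which makes phosphoenolpyruvate from oxaloacetate and is the classical control point of gluconeogenesis. Its signal ran from 54.8 over a median of 62.5 to 70.0 in ABCC2-/- grafts and from 52.7 over a median of 55.8 to 78.0 in wild-type grafts. The groups overlapped, and wild-type replicate 4 was the highest of all. The log2 difference was 0.10 (SE 0.10, adjusted p = 0.737 in limma), a ratio of 1.07 (95% confidence interval 0.921 to 1.24). In array set 1 the ABCC2-/- grafts, at 54.8 to 58.2, lay above the wild-type grafts, at 52.7 to 53.3, and in array set 2 they overlapped. How many of all probe sets lack overlap in a single array set was not worked out.

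Fbp1 encodes fructose-1,6-bisphosphatase, a later and irreversible step of the pathway. Its signal ran from 53.8 over a median of 61.6 to 68.2 in ABCC2-/- grafts and from 49.7 over a median of 54.4 to 69.7 in wild-type grafts. The high arrays were those of Pck1, the 3 ABCC2-/- grafts of array set 2 and wild-type replicate 4. Fbp1 differed by 0.12 on the log2 scale (SE 0.09, adjusted p = 0.680 in limma), a ratio of 1.09 (95% confidence interval 0.945 to 1.25). It differed by 0.098 in array set 1 and 0.14 in array set 2, and with array set as a block the unadjusted p was 0.0482 (adjusted p = 0.252).

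The highest signal of any probe set was between 136 and 138 on ABCC2-/- arrays of array set 2 and 153 on wild-type replicate 4, against 88.7 to 118 on the other 8 arrays, and Pck1 and Fbp1 were bright on the same 4 arrays. After quantile normalization, which gives every array the same distribution of signals, the log2 differences were -0.0041 for Pck1 and 0.0060 for Fbp1. They were 0.13 and 0.15 after median centring, and 0.020 and 0.032 with the Gapdh ratio as a covariate. Slc5a2 (-0.36), Slc2a2 (-0.33) and Pcx (-0.32) stayed negative after quantile normalization.

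Slc37a4 encodes the translocase that brings glucose 6-phosphate into the endoplasmic reticulum, where glucose is released. Its signal ran from 18.2 over a median of 18.5 to 21.9 in ABCC2-/- grafts and from 16.3 over a median of 18.6 to 21.4 in wild-type grafts. The groups overlapped almost fully. Slc37a4 differed by 0.02 on the log2 scale (SE 0.08, adjusted p = 0.927 in limma), and the 95% confidence interval of the ratio, 0.901 to 1.15, left room for a small change in either direction.

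**Figure D3:**
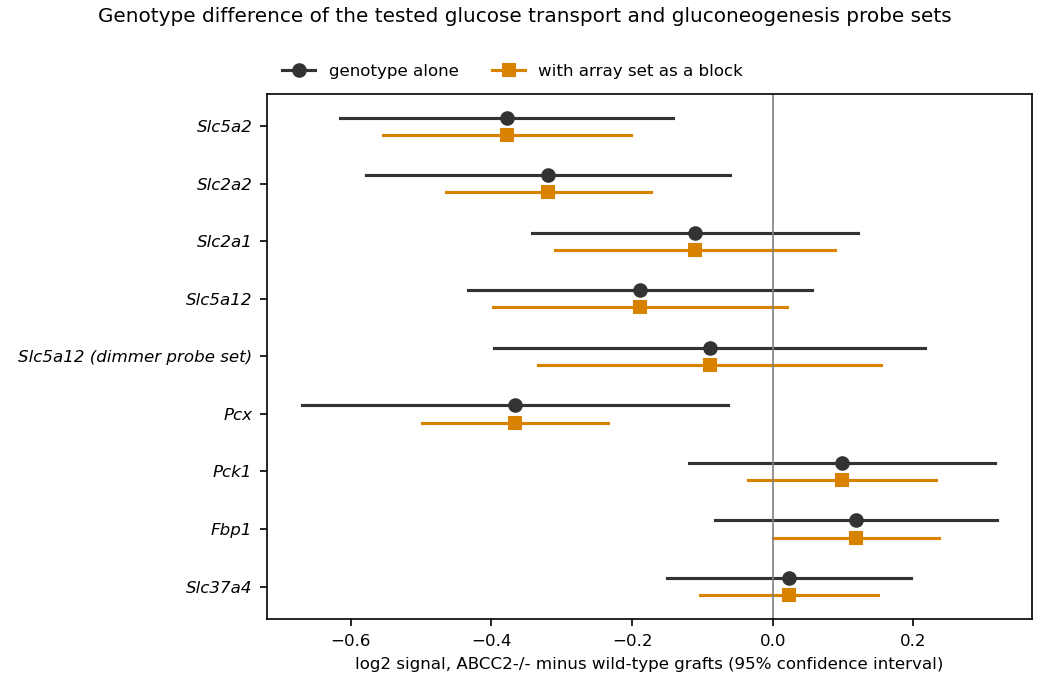
Difference in log2 signal between ABCC2-/- and wild-type grafts with its 95% confidence interval for the 9 tested probe sets, from a fit with genotype alone (circles) and with array set as a block (squares). The intervals of Slc5a2, Slc2a2 and Pcx lie below 0 in both fits before adjustment for multiple tests, and those of Slc5a12, Slc2a1, Pck1 and Slc37a4 span it in both. The interval of Fbp1 spans 0 with genotype alone and lies just above it with the block.

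The median log2 difference of the 9 tested probe sets was -0.11, against -0.023 over all tested probe sets, with 6 negative and 3 positive. It was -0.31 in array set 1 and -0.071 in array set 2, against -0.046 and 0.0023 over all tested probe sets. Among all tested probe sets 10178 were negative and 8447 positive. The most negative values belonged to Slc5a2, Pcx and Slc2a2, and the most positive to Fbp1 and Pck1. The share of negative differences was thus read against that of all probe sets, and nothing particular to these genes was tested.

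Other genes of glucose handling were read from lists of sugar transporters, gluconeogenic enzymes, glycolytic enzymes and regulators, each gene by its brightest probe set. None of the 80 tested genes in these 4 lists passed the threshold in either direction, nor with array set as a block or in array set 1 alone. In array set 2 alone 5 passed as lower (Pfkfb4, Ppargc1a, Slc25a10, Gpd1 and Cebpa) and 2 as higher (Prkaa2 and Mpc1), which is 8.75% of them. Over all 18625 tested probe sets 6.39% passed there, 504 as lower and 686 as higher. Among 14 tested sugar and monocarboxylate transporters 8 were negative and 6 positive (median -0.0085). The lowest p belonged to Slc2a4, the insulin-responsive glucose transporter (-0.19), Slc5a11, a transporter of myo-inositol (-0.16), and Slc5a3, another one (-0.21), with adjusted p between 0.638 and 0.645 in limma.

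Among 26 tested gluconeogenic and substrate enzymes 17 were negative and 9 positive (median -0.037), and 3 were lower at an unadjusted p under 0.05. Gpd1, which links glycerol to the pathway, had a signal of 10.7 to 13.8 in ABCC2-/- grafts and 13.8 to 17.8 in wild-type grafts, a narrow gap without overlap. Of all tested probe sets 0.274% were lower without overlap. It differed by -0.28 on the log2 scale (SE 0.09, adjusted p = 0.606 in limma). Slc25a10, the mitochondrial dicarboxylate carrier, differed by -0.36 (SE 0.12) and Gk, glycerol kinase, by -0.19 (SE 0.08), with adjusted p of 0.606 and 0.614.

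Among 19 tested genes of glycolysis and its switches 14 were negative and 5 positive (median -0.14). Their median was -0.026 in array set 1 and -0.23 in array set 2. Pfkfb4, an enzyme that sets the level of fructose 2,6-bisphosphate, differed by -0.49 (log2 scale, SE 0.15, adjusted p = 0.606 in limma), with -0.84 in array set 2 and -0.14 in array set 1 (interaction adjusted p = 0.0869). Pdk2, a kinase that inhibits pyruvate dehydrogenase, had -0.16 and Pdhb, a subunit of that dehydrogenase, 0.13, both with an adjusted p of 0.628.

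Among 21 tested regulators 15 were negative and 6 positive (median -0.12), of which 3 negative and 1 positive had an unadjusted p under 0.05. Ppargc1a, a coactivator of gluconeogenic and mitochondrial genes, had a signal of 3.43 ± 0.718 in ABCC2-/- grafts and 4.39 ± 0.560 in wild-type grafts (SD, n = 6 each), a log2 difference of -0.37 (SE 0.13). Cebpa, a transcription factor of metabolic genes, had -0.39 (SE 0.13) and the insulin signalling kinase gene Akt1 -0.25 (SE 0.10). The adjusted p of these 3 lay between 0.606 and 0.612 in limma. Each was more negative in array set 2 (-0.56, -0.52 and -0.31) than in array set 1 (-0.18, -0.25 and -0.18), but as an interaction term none of these contrasts passed (adjusted p between 0.201 and 0.627 in limma). The positive gene was Prkaa2, of a catalytic subunit of the energy sensor AMPK, which differed by 0.41 (SE 0.19). It was at 0.80 in array set 2 and 0.017 in array set 1, and this contrast passed as an interaction term (adjusted p = 0.0234). Prkaa2 was named after its values were seen, as was Mpc1, of the mitochondrial pyruvate carrier.

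**Figure D4:**
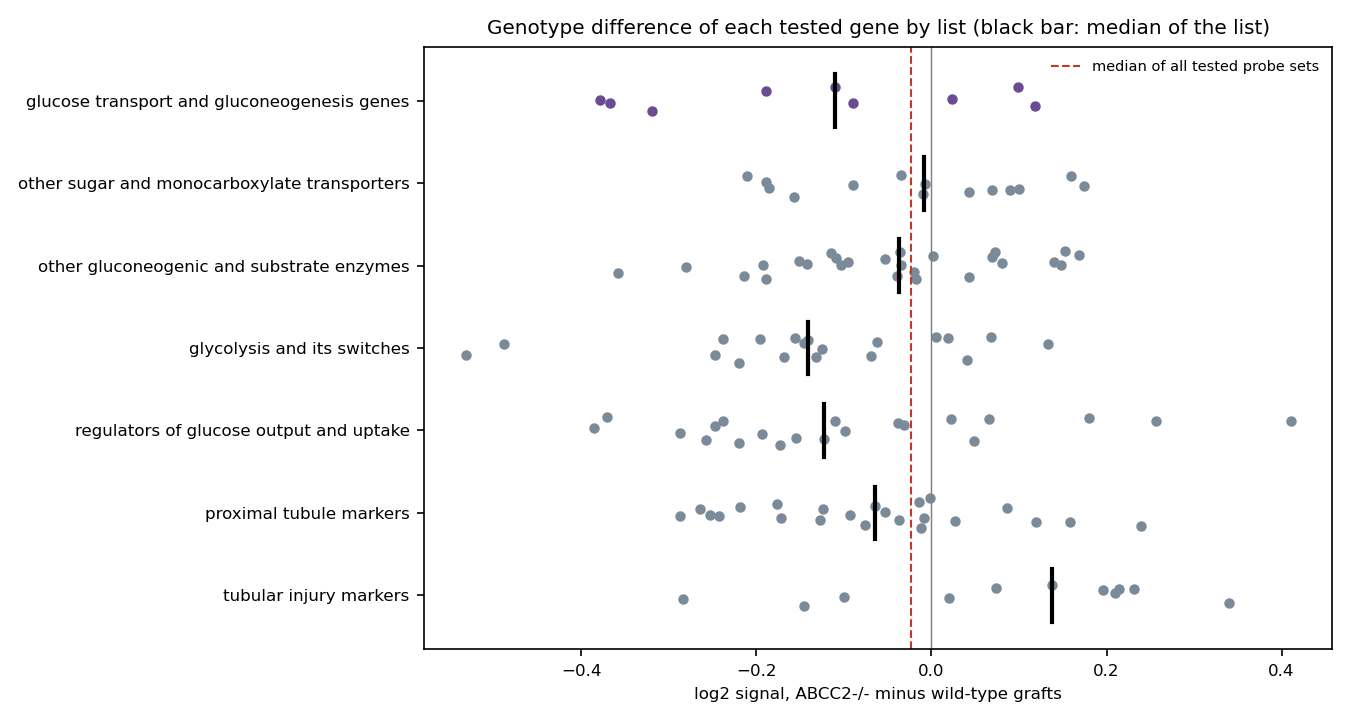
Difference in log2 signal between ABCC2-/- and wild-type grafts for every tested gene of 7 lists, 1 point per gene (per probe set in the top row), with the median of each list as a black bar and the median of all tested probe sets (-0.023) as a dashed line. The 9 probe sets of the top row have a median of -0.11 and spread from -0.38 to 0.12.

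Other markers of the proximal tubule, the segment that expresses most of these genes, were read beside them. Of 25 proximal tubule markers 23 were tested, 18 negative and 5 positive, with a median of -0.065 and none past the threshold. Their summed signal was between 615 and 708 in ABCC2-/- grafts and between 624 and 744 in wild-type grafts, over 24 markers with a probe set. Their median was 0.043 in array set 1 and -0.12 in array set 2. In array set 2 alone 2 of the 23 passed as lower, against 504 of all 18625 tested probe sets. Lrp2, the endocytic receptor megalin, had a log2 difference of -0.0087 and Slc34a1, the phosphate transporter of the early tubule, of 0.12. At an unadjusted p under 0.05, 3 of these markers were lower, namely the phosphate transporter gene Slc34a3 (-0.29), the sulfate transporter gene Slc26a1 (-0.26, without overlap) and Cubn of the endocytic receptor cubilin (-0.22), which were picked after their values were seen.

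Markers of other cells were read in the same way. Umod of the thick ascending limb was at 0.023, Aqp2 of the collecting duct at -0.13 (-0.40 in array set 1 and 0.14 in array set 2), the endothelial Pecam1 at -0.048 and the leukocyte Ptprc at -0.090. Of 13 tested markers of later nephron segments, from the loop of Henle on, 9 were negative and 4 positive (median -0.11). Picked after their values were seen, 3 of them were lower at an unadjusted p under 0.05 by about as much as Slc5a2. They were Slc26a4 (-0.42), Slc4a1 (-0.41) and Slc12a3 (-0.40). With array set as a block Slc26a4 passed (adjusted p = 0.0386 in limma). In array set 2 alone these 3 passed as lower, against 504 of all 18625 tested probe sets. Of 9 tested markers of glomerulus and endothelium 7 were negative and 2 positive (median -0.079). Among the negative ones Nphs1 of the glomerulus (-0.24) had an unadjusted p under 0.05. Of 10 tested leukocyte markers 6 were negative (median -0.054), 1 of them, Itgax (-0.34), at an unadjusted p under 0.05. Havcr1, a marker of tubular injury, was under the filter, at 0.178 ± 0.0643 in ABCC2-/- grafts and 0.170 ± 0.0428 in wild-type grafts (SD, n = 6 each), and the median of the 11 tested injury markers was 0.14, with 8 positive and 3 negative. This median was -0.088 in array set 1 and 0.29 in array set 2. At an unadjusted p under 0.05, 1 injury marker was lower and 1 higher. The injury marker that passed with array set as a block, the keratin gene Krt8, was lower (-0.28, adjusted p = 0.0386 in limma). The one that passed in array set 2 alone, Spp1, was higher there (0.52, adjusted p = 0.0280 in limma) and at -0.088 in array set 1. Both were picked after their values were seen. Over all 18625 tested probe sets 686 passed as higher in array set 2 alone. The part of these markers in the differences of glucose genes was not tested.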

How the data were processed

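The authors deposited probe set intensity values on a linear scale for 12 arrays, 1 per graft. The software MAS5 and GCOS is named, with no version, per the submitters' processing notes. How the arrays were scaled to each other is not stated there, and the lowest deposited value, 0.01, held for 3.56% of values. Arrays were grouped by sample title. The 57 control probe sets were dropped, values under the pooled 20th percentile (0.0694) were raised to it, which understates differences of dim genes, and log2 was taken. Testing was limited to the 18625 probe sets whose mean log2 signal reached the 40th percentile, and was done with limma 3.58.1 in R 4.3.3 (lmFit, eBayes with a mean-variance trend, genotype alone), with Benjamini-Hochberg adjustment and a threshold of 0.05, and the fit was tested on simulated data. Contrasts within an array were tested with exact two-sided permutations of the 12 arrays. The number of arrays limits the precision. Array sets were split at the largest gap in the middle Gapdh control signal; they match the first and last 3 arrays listed per genotype, and no source used here says what they stand for. Symbols were updated through Entrez numbers to GRCr8, used for names and promoter windows, which 9 of the 10 genes have. Named beside the 10 genes are Abcc2, from each glucose list those past the threshold or, where there were none, the 3 of lowest p, and defining cell markers, of which 1 is not reported here. The genes, lists and tests were chosen with earlier results of these data known. Alternatives changed the floor, filter, normalization, variance trend, array weights, block, covariate and arrays left out.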

Additional observations from a re-analysis of the deposited data

Results flagged for a closer look

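The poly-A spike-in control probe sets, which belong to no gene of the rat, had a median ratio of 6.55 of ABCC2-/- over wild-type arrays, a signal outside the main measurement. The hybridization spike-ins, added after labelling, had a median ratio of 1.07. Pck1 stood apart on wild-type replicate 4, with a signal of 78.0, the highest of its group. The brighter Slc5a12 probe set stood apart on wild-type replicate 8, with a signal of 5.19, the lowest of its group. These are 2 flags among 46 groups checked, and how many chance alone would flag was not worked out.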

How the results depend on the processing

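No paired analysis was possible because the genotypes share fewer than 2 replicate numbers. None of the 9 tested probe sets passed in the main fit, in any of 12 fits that left out 1 array, or in 9 of 11 other alternatives. With array set as a block 2 passed (Slc2a2 and Pcx) among 112 of all probe sets, and in array set 2 alone 2 passed (Slc5a2 and Pcx) among 1190. Elsewhere between 3 and 5 of all probe sets passed. Slc5a2, Slc2a2, Pcx and the brighter Slc5a12 probe set kept a negative difference in every alternative run, between -0.45 and -0.25 for Slc5a2, -0.41 and -0.18 for Slc2a2, -0.43 and -0.16 for Pcx and -0.31 and -0.071 for Slc5a12. Slc2a1 turned to 0.046 in array set 1 alone and 0.0061 with the Gapdh ratio as a covariate. Pck1 turned to -0.0041 after quantile normalization, and the dimmer Slc5a12 probe set to 0.15 in array set 2 alone. Slc37a4 turned to -0.033 with the Gapdh ratio and lay between -0.019 and 0.060 with 1 array left out, being -0.019 without wild-type replicate 1 and -0.015 without ABCC2-/- replicate 10. In array set 2 alone the within-array contrast was 0.15 for Slc5a2 minus Slc5a1 (exact p = 0.800) and 0.033 for Slc2a2 minus Slc2a1 (exact p = 0.700), where 3 against 3 arrays cannot go below 0.100. Fbp1 stayed positive, between 0.0060 after quantile normalization and 0.18 without wild-type replicate 4. Leaving out 1 array moved some differences by over 1.5 times. Slc2a1 was -0.028 without ABCC2-/- replicate 10, and Pck1 0.18 without wild-type replicate 4 and between 0.066 and 0.14 with any other array left out. Without wild-type replicate 8 the brighter Slc5a12 probe set was at -0.29 and the dimmer one at -0.18, and the dimmer one lay between -0.15 and -0.017 with any other array left out. With 1 array left out the within-array contrasts lay between -0.56 and -0.23 and between -0.29 and -0.15. Taking the mean over probe sets of a gene changed neither contrast, since each of the 4 genes has 1. The cause of these turns was not tested. Low signal limits Slc5a1, which lay between 0.0516 and 0.271 around a filter of 0.173.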
